A study of Mus musculus with 1 sample.

Results

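The proneural and intermediate progenitor factors were followed here by sc-RNA Seq, single-cell RNA sequencing, in newborn (P0) wild-type C57BL/6 mice, from which cells of the cerebral cortex were taken. They are 9 transcription regulators, Neurog1, Neurog2, Insm1, Btg2, Eomes, Neurod1, Neurod4, Neurod2 and Neurod6, chosen by gene symbol out of the 51912 genes listed in the table. The data were UMI counts, that is, captured transcripts counted once each through a molecular barcode, of 1 library with 11062 cells and a median of 7196.5 UMIs per cell. The cells came from cortex digested in papain. How many animals were pooled is not given in the sources used here, and the SERPINA3 knock-in group and the triplicates that the design text names were not analysed here. With 1 library of 1 group there was no replicate error and no test. All intervals in brackets are 95% intervals that cover counting error only.

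In the embryonic dorsal telencephalon, radial glia divide to give neurons directly or through intermediate progenitors. The basic helix-loop-helix (bHLH) proteins Neurog1 and Neurog2 are switched on in dividing progenitors and bind DNA at E boxes together with E proteins, while Id and Hes proteins hold them back. Insm1 and Btg2 accompany the divisions that produce neurons, Eomes (also called TBR2) marks intermediate progenitors, and the related Neurod proteins act later, in differentiating excitatory neurons.

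To describe the order of these factors, cells were sorted by summed UMIs of marker genes outside the list of 9. Of 8631 cells with at least 2000 UMIs, 41 were dividing cells with radial glia genes, 52 were dividing cells without radial glia genes, 545 were newborn neurons (Sstr2, Sema3c, Nhlh1 and Mfng), 4167 were young neurons with Igfbpl1 and 994 were maturing upper-layer neurons. These formed stages 1 to 5. The names stand for the marker genes alone and no lineage was traced. A further 7 gates held radial glia and astrocytes that were not dividing (258 cells), maturing deep-layer neurons (550), inhibitory cells that were not dividing (474) or were dividing (49), oligodendrocyte lineage cells (360), vascular and immune cells (65) and Cajal-Retzius cells (25). The dividing list stood at 6100.8 and 6219 CPM (UMIs per 1000000 UMIs, mitochondrial genes left out) in stages 1 and 2 and at 22.8 to 27.5 CPM in stages 3 to 5. The radial glia list stood at 2613 CPM in stage 1 and 138 CPM in stage 2. Other lists were less separate. Oligodendrocyte lineage cells held the dividing list at 2864 CPM and the radial glia list at 1235 CPM. Igfbpl1, which defined the young gate, was at 1052 CPM there and at 2615 CPM in newborn neurons, and the upper-layer list was at 919 CPM in young neurons and 1052 CPM in its own gate. The neuron genes Stmn2, Gap43 and Mapt together went from 321 CPM in stage 1 and 412 in stage 2 to 2370, 4615 and 7454 CPM in stages 3 to 5. The 52 cells of stage 2 also held the young neuron marker Igfbpl1 at 1524 CPM and the inhibitory list at 105 CPM, against 12.9 CPM for that list in stage 1. Sstr2 and Sema3c were known from earlier results of these data to lead a cluster with high Eomes, so a high Eomes level in the newborn gate is not independent of the choice of markers.

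Neurog1 had 0 UMIs in the whole library. This allows up to 0.0346 UMIs per 1000000, taking 3 UMIs as the limit that a count of 0 leaves. Neurog1 is therefore in no comparison below. The other 8 members had between 23 UMIs (Neurod4, in 17 cells) and 60061 UMIs (Neurod6, in 7908 cells).

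Neurog2, the proneural factor of dorsal progenitors, was highest of the 5 stages in the dividing cells without radial glia genes. Its level was 8.57 CPM (2.33 to 21.9; 4 UMIs) in dividing cells with radial glia genes, 214 CPM (173 to 261; 96 UMIs) in those without, 36.8 CPM (31.4 to 42.8) in newborn neurons, 7.03 CPM (6.22 to 7.91) in young neurons and 1.19 CPM (0.663 to 1.95) in upper-layer neurons. The step between both dividing gates was 24.9-fold (9.43 to 93.4), or 8.45-fold with oligodendrocyte lineage cells not set aside, and the level in newborn neurons was 0.172 (0.133 to 0.224) of that in stage 2. The newborn ratio depended on the newborn markers and was 0.940 (0.720 to 1.23) in cells chosen by Nhlh1 and Mfng alone. Of the 52 cells of stage 2, 27 (51.9%) held a Neurog2 UMI and the highest cell held 18. After each cell had been thinned to 2000 UMIs the share was 25.0% (14.0 to 38.9), against 0.422% (0.0511 to 1.52) in inhibitory cells that were not dividing, which should lack the gene. The median depth was 8755.5 UMIs in stage 2 and 6314 UMIs in those inhibitory cells, where the share before thinning was 1.27%. In radial glia and astrocytes that were not dividing, 3 Neurog2 UMIs were found in 258 cells.

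Insm1, a zinc-finger repressor of neurogenic and neuroendocrine cells, was at 131 CPM (99.95 to 168) in stage 1, 438 CPM (379 to 504) in stage 2, 172 CPM (160.4 to 185) in newborn neurons, 72.6 CPM (70.0 to 75.3) in young neurons and 19.4 CPM (17.0 to 21.9) in upper-layer neurons. It was thus highest in the same gate as Neurog2, with a step between the dividing gates of 3.35-fold (2.51 to 4.55). This step ran from 2.53-fold to 8.36-fold over the 11 alternatives. It was 5.10-fold with gate thresholds at 1.5 times their value. The 8.36-fold was in cells thinned to 2000 UMIs, where 5 of the 41 cells of stage 1 held an Insm1 UMI. Unlike Neurog2, it was as high in dividing inhibitory cells, at 437 CPM (379 to 499.9). The ratio of stage 2 to dividing inhibitory cells was 1.004 (0.822 to 1.23) for Insm1, 34.1 (11.3 to 168) for Neurog2 and 213 (37.8 to 8456) for Eomes, the last 2 against 3 UMIs and 1 UMI in the 49 dividing inhibitory cells. Dividing inhibitory cells held 9.58-fold (7.82 to 11.7) the level of other inhibitory cells, while newborn neurons held 1.32-fold (1.02 to 1.74) that of stage 1. Thinned to 2000 UMIs, 65.4% (50.9 to 78) of stage 2 cells held an Insm1 UMI, 82.7% before thinning, and the thinned share was 8.44% (6.10 to 11.3) in inhibitory cells that were not dividing. In newborn neurons the thinned share was 31.4% (27.5 to 35.5) and in stage 1 12.2% (4.08 to 26.2). Before thinning these were 69.7% and 48.8%.

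Btg2, an antiproliferative gene known from neurogenic divisions and also as an early response gene, had another profile. It was at 229 CPM (188 to 277) in stage 1, 165 CPM (129 to 207) in stage 2, 42.3 CPM (36.5 to 48.7) in newborn neurons, 13 CPM (11.9 to 14.2) in young neurons and 6.32 CPM (5.01 to 7.87) in upper-layer neurons. Within the 5 stages, with the newborn gate of 4 genes, it was the only one of the 8 members with its highest level in stage 1. The ratio of stage 2 to stage 1 was 0.718 (0.527 to 0.9752), and it was 1.08 when oligodendrocyte lineage cells were not set aside. Non-dividing radial glia and astrocytes held more, at 322 CPM (297 to 347), and vascular and immune cells the most of all 12 gates, at 1199 CPM (1129 to 1272). The label of an intermediate progenitor factor thus did not describe where most Btg2 was found: 964 of the 3992 Btg2 UMIs in the cells kept fell in the 5 stages.

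Eomes, the T-box factor of intermediate progenitors, was highest of the 5 stages in stage 2 with the newborn gate of 4 genes, but not with that of Nhlh1 and Mfng alone, where it was 1.45-fold (1.22 to 1.72) over stage 2. With the gate of 4 genes it was at 10.7 CPM (3.48 to 25.0; 5 UMIs) in stage 1, 445 CPM (385 to 511; 200 UMIs) in stage 2, 174 CPM (162 to 187) in newborn neurons, 9.70 CPM (8.75 to 10.7) in young neurons and 0.395 CPM (0.128 to 0.922; 5 UMIs) in upper-layer neurons. The step into stage 2 was 41.5-fold (17.5 to 129), but 10.8-fold with oligodendrocyte lineage cells not set aside and 11.2-fold with gate thresholds at 0.6 times their value. From newborn to young neurons the ratio was 0.0557 (0.0491 to 0.0630), and it ran from 0.0264 with the newborn gate from Nhlh1 and Mfng to 0.142 with gate thresholds at 1.5 times their value. Thinned to 2000 UMIs, 34.6% (22.0 to 49.1) of stage 2 cells and 20% (16.7 to 23.6) of newborn neurons held an Eomes UMI, against 0.422% (0.0511 to 1.52) of inhibitory cells that were not dividing. Before thinning these shares were 55.8%, 30.1% and 1.90%. The newborn gate had a median depth of 6688 UMIs. The cells that held Eomes held it in number: the highest cell had 19 UMIs in stage 2, 22 in the newborn gate and 21 in the young gate, where the 381 Eomes UMIs lay in 90 of 4167 cells.

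**Figure D1:**
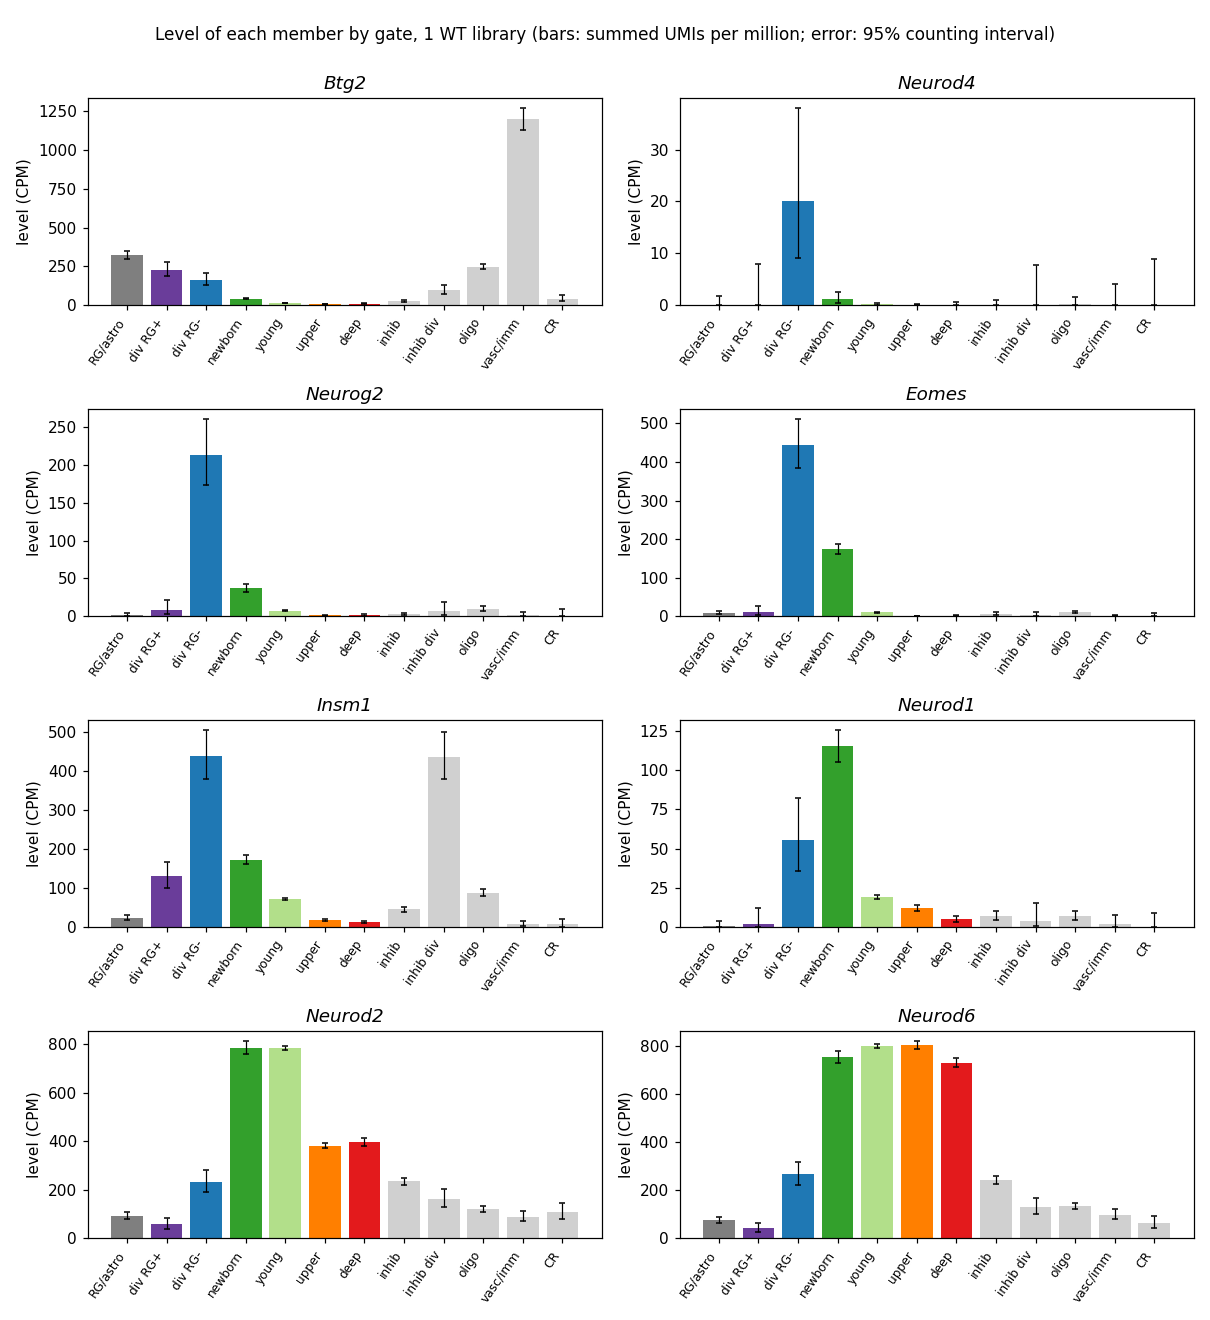
Level of each of the 8 members with UMIs (vertical axis, summed UMIs per 1000000, CPM) in the 12 gates of 1 WT library (horizontal axis), as bars with 95% counting intervals; the scale differs between panels. Neurog2, Eomes and Neurod4 stand out in dividing cells without radial glia genes (214, 445 and 20.03 CPM), Neurod1 in newborn neurons (115 CPM), Neurod2 and Neurod6 in all 4 neuron gates, Insm1 also in dividing inhibitory cells (437 CPM) and Btg2 in vascular and immune cells (1199 CPM).

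Neurod1, which follows the neurogenins in newborn excitatory neurons, was at 2.14 CPM in stage 1 (1 UMI), 55.6 CPM (36 to 82.1) in stage 2, 115 CPM (105 to 125) in newborn neurons, 19.2 CPM (17.9 to 20.7) in young neurons and 12.2 CPM (10.4 to 14.3) in upper-layer neurons. It was higher in newborn neurons than in stage 2, by 2.07-fold (1.39 to 3.23), and by 1.52-fold to 3.33-fold over the 11 alternatives. The level in young neurons was 0.167 (0.149 to 0.187) of that in newborn neurons. Between the layers, deep-layer neurons held 5.05 CPM (3.49 to 7.05), a ratio of 0.412 (0.275 to 0.60) to upper-layer neurons. Inhibitory cells that were not dividing held 6.93 CPM (4.61 to 10.0).

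Neurod4, a bHLH factor named together with the neurogenins in neuronal commitment, was rare. Of its 23 UMIs, 9 were in 6 of the 52 cells of stage 2, which gave 20.03 CPM (9.16 to 38.0). Newborn neurons had 5 UMIs (1.11 CPM, 0.359 to 2.58) and young neurons 7 (0.178 CPM, 0.0717 to 0.367). No UMI was found in the 41 cells of stage 1, where 3 UMIs would be 6.43 CPM, nor in the 994 upper-layer neurons, where 3 UMIs would be 0.237 CPM. The profile of Neurod4 in these cells therefore rests on few molecules. Over the 12 gates its log2 level correlated at 0.855 with that of Neurog2 and at 0.618 with that of Neurod1.

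Neurod2 and Neurod6, factors of postmitotic excitatory neurons, were both higher in newborn neurons than in dividing cells and differed from each other in maturing neurons. Neurod2 was at 57.8 CPM (38.1 to 84.2) in stage 1, 231 CPM (189 to 280.4) in stage 2, 786 CPM (761 to 813) in newborn neurons, 786 CPM (777 to 795) in young neurons, 381 CPM (370.3 to 392) in upper-layer neurons and 396 CPM (381 to 412) in deep-layer neurons. Neurod6 was at 40.7 CPM (24.5 to 63.6), 267 CPM (221 to 319), 755 CPM (729.9 to 781), 803 CPM (794 to 812), 806 CPM (791 to 822) and 733 CPM (712 to 753) in the same gates. From young to upper-layer neurons the ratio was 0.485 (0.470 to 0.4998) for Neurod2 and 1.004 (0.981 to 1.03) for Neurod6. The number of Neurod2 UMIs per Neurod6 UMI was 1.04 (0.994 to 1.09) in newborn neurons, 0.978 (0.963 to 0.994) in young neurons, 0.473 (0.457 to 0.489) in upper-layer neurons and 0.541 (0.516 to 0.567) in deep-layer neurons. This count ratio does not compare the levels of both genes with each other, since capture may differ between transcripts, but its change between gates does not depend on the depth of the cells.

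Both genes were also counted in cells that should lack them. Inhibitory cells that were not dividing held 234 CPM (219 to 249.6) of Neurod2 and 242 CPM (227 to 258) of Neurod6. Dividing inhibitory cells held 161 CPM (127 to 201) and 132 CPM (101 to 168). The other non-neuronal gates, stage 1 and Cajal-Retzius cells held 57.8 to 121 CPM of Neurod2 and 40.7 to 134 CPM of Neurod6. In inhibitory cells that were not dividing, 0.966 (0.883 to 1.06) Neurod2 UMIs were found per Neurod6 UMI. In the other gates that should lack both genes this number ran from 0.9 (0.788 to 1.03) in oligodendrocyte lineage cells to 1.70 (1.04 to 2.85) in Cajal-Retzius cells. It was 1.24 (0.996 to 1.55) in radial glia and astrocytes. The Cajal-Retzius value rests on 46 and 27 UMIs in 25 cells, with up to 10 Neurod2 UMIs in 1 cell. Whether this number differed between the gates was not tested. Thinned to 2000 UMIs, 17.9% of the inhibitory cells that were not dividing held Neurod2 and 23.2% held Neurod6, against 73.8% and 73.0% of newborn neurons. Before thinning the shares were 38.2% and 39.0% against 96.7% and 94.9%. The level of stage 2 relative to inhibitory cells that were not dividing was 0.988 (0.799 to 1.21) for Neurod2 and 1.10 (0.904 to 1.33) for Neurod6. Relative to dividing inhibitory cells it was 1.44 (1.06 to 1.958) for Neurod2 and 2.03 (1.48 to 2.80) for Neurod6, and relative to radial glia and astrocytes that were not dividing 2.51 (1.95 to 3.21) and 3.60 (2.80 to 4.61). Stage 2 thus lay above these 2 gates, while at this depth neither gene was told apart from its level in inhibitory cells that were not dividing. Whether free RNA or mixed droplets made up that signal was not tested.

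The order of the members was put into 1 number each, the centre of expression, which is the mean of the stage numbers 1 to 5 weighted by the level in each stage. Btg2 came first at 1.69 (1.62 to 1.76), followed by Neurod4 at 2.07 (1.58 to 2.34), Neurog2 at 2.17 (2.12 to 2.22), Eomes at 2.29 (2.25 to 2.32), Insm1 at 2.29 (2.24 to 2.35), Neurod1 at 2.92 (2.81 to 3.03), Neurod2 at 3.54 (3.50 to 3.58) and Neurod6 at 3.77 (3.74 to 3.81). The interval of Neurod4, which had 0 UMIs in stages 1 and 5, spans the exact limits of all its levels and overlapped those of Btg2, Neurog2, Eomes and Insm1, so Neurod4 was not ordered against these 4. Eomes and Insm1 overlapped too. The other neighbours lay apart by more than their intervals, which do not cover the spread between cells. Neurog2 and Eomes differed by 0.116 stages, and the newborn markers were not independent of Eomes. With the newborn gate from Nhlh1 and Mfng alone, however, Insm1 came before Neurog2, Eomes and Neurod4. Btg2 also went with early response genes, as given above, and their part in its first place was not tested. The highest level fell in stage 1 for 1 member, in stage 2 for 4 (Neurod4, Neurog2, Eomes and Insm1), in stage 3 for 2 (Neurod1 and Neurod2) and in stage 5 for 1 (Neurod6). Neurod2 was at 99.9% of its highest level in stage 4 and Neurod6 at 99.6%, so the position of their peaks was not resolved.

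**Figure D2:**
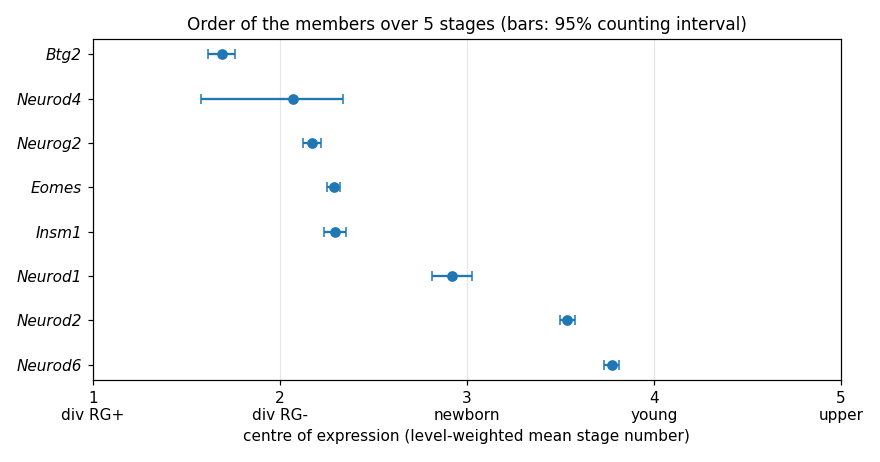
Centre of expression of the 8 members (points, level-weighted mean of the stage numbers, horizontal axis from stage 1, dividing cells with radial glia genes, to stage 5, upper-layer neurons) with 95% counting intervals (bars; for Neurod4, the range over the limits of its levels). Btg2 lies at 1.69, a group of 4 members between 2.07 and 2.29, Neurod1 at 2.92, and Neurod2 and Neurod6 at 3.54 and 3.77.

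The members' steps were set against those of all genes with at least 20 UMIs over both gates. Neurod4 and Neurog1 were below this limit, which left 7 members. From stage 1 to stage 2, 6 of the 7 were at least 2-fold higher (Neurog2, Insm1, Eomes, Neurod1, Neurod2 and Neurod6), against 6.39% of 7009 genes, and 0 were at least 2-fold lower, against 11.3%. Of the 6, Neurod2 and Neurod6 were not told apart in stage 2 from inhibitory cells that were not dividing, which should lack both. The ratios were 0.988 (0.799 to 1.21) and 1.10 (0.904 to 1.33). Relative to dividing inhibitory cells both were higher in stage 2. From stage 2 to newborn neurons, 3 of 7 were higher (Neurod1, Neurod2 and Neurod6; 17.7% of 11489 genes) and 4 were lower (Neurog2, Insm1, Btg2 and Eomes; 11.2%). From newborn to young neurons, 0 were higher (8.18% of 16362 genes) and 5 were lower (Neurog2, Insm1, Btg2, Eomes and Neurod1; 6.5%). From young to upper-layer neurons, 0 were higher (3.8% of 16782 genes) and 5 were lower (Neurog2, Insm1, Btg2, Eomes and Neurod2; 5.95%). The members were picked as genes of neurogenesis, so a share above that of all genes describes the choice as well as the cells.

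The place of the newborn gate in this order depended on its markers. With Nhlh1 and Mfng alone the gate held 87 cells, 69 of which were also in the gate of 4 genes. In these cells Eomes was at 644 CPM (586 to 706), 1.45-fold over stage 2 instead of 0.392 (0.335 to 0.460), and Btg2 at 281 CPM (243 to 323), 1.70-fold (1.30 to 2.26) over stage 2 instead of 0.257 (0.195 to 0.341). Neurog2 was at 201 CPM (169 to 237), a ratio of 0.940 (0.720 to 1.23). Neurod2, at 396 CPM (351 to 445), was lower than in the wider gate by a ratio of 0.504 (0.444 to 0.569). The list of immediate early genes, which respond quickly to stimulation, was at 812 CPM in these cells, against 231 CPM in the gate of 4 genes. The peak of Eomes in stage 2 and that of Btg2 in stage 1, where it was at 229 CPM, thus did not hold for the narrower newborn gate. With the wider gate, the stage 1 peak of Btg2 was lost when oligodendrocyte lineage cells were not set aside. The ratio of stage 2 to stage 1 was then 1.08.

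A finer series was obtained by ranking all newborn, young and upper-layer cells together by Stmn2, Gap43 and Mapt and cutting them into 10 groups of 570 or 571 cells. This ranking was chosen after the gate levels had been seen. From the lowest group to the next, Eomes went from 308 to 12.2 CPM, Neurog2 from 76.9 to 14.96 CPM and Btg2 from 81.5 to 18.9 CPM. The immediate early list went from 340 to 96.5 CPM between the same groups. Neurod1 was spread over more groups, at 142, 65.6 and 32.6 CPM in the first 3 groups. Insm1 stayed high for longer, at 204 (189 to 220.0), 214 (198 to 230.1) and 145 CPM (133 to 157), and was at 18.2 CPM in the last group. Neurod2 went from 788 CPM (758 to 819) to 1102 CPM (1069 to 1136) in the third group and was lower in every later group, down to 356 CPM (344 to 368). Neurod6 stayed between 712 and 861 CPM throughout. In this ranking, which does not use the newborn markers for order, the level in the third group was 0.709 (0.632 to 0.794) of that in the first for Insm1 and 0.230 (0.187 to 0.281) for Neurod1. From the first to the last of the 10 groups the intervals overlapped, with a first over last ratio of 11.2 (9.45 to 13.3) for Insm1 and 10.8 (8.84 to 13.3) for Neurod1.

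**Figure D3:**
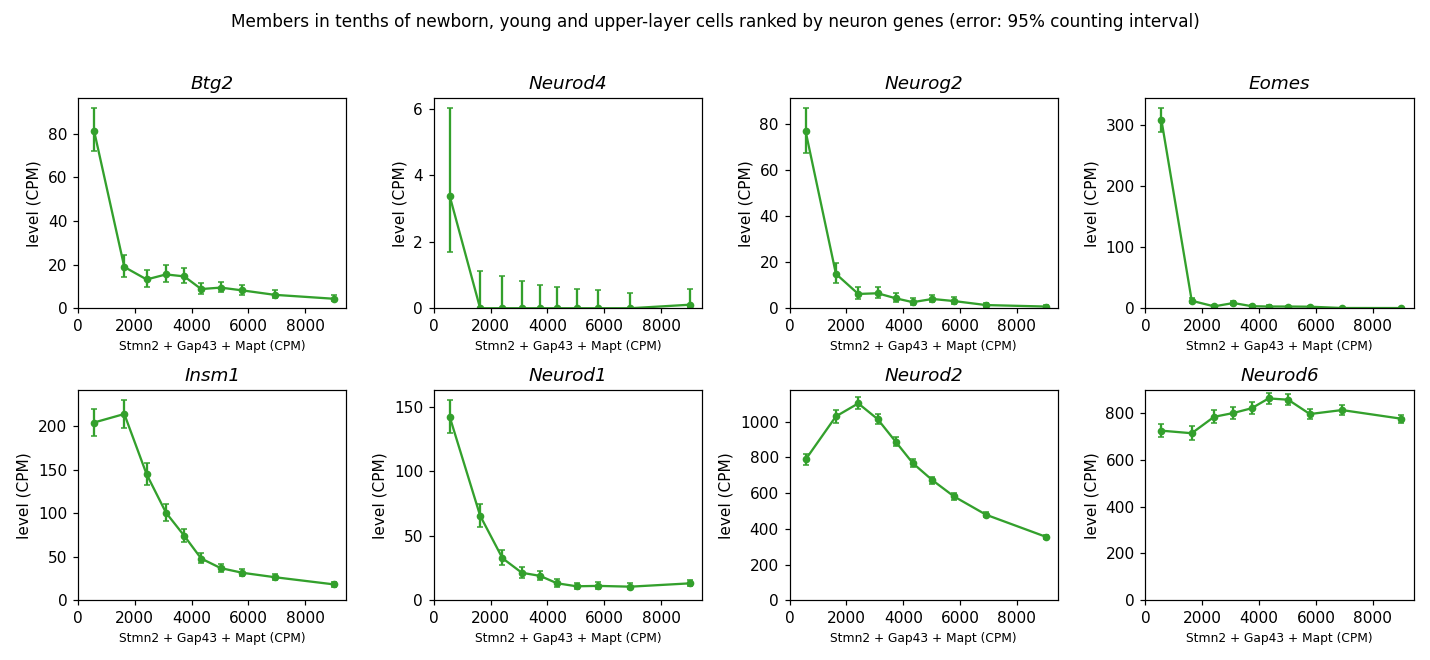
Level (vertical axis, CPM, with 95% counting intervals) of the 8 members in 10 groups of equal size of the newborn, young and upper-layer cells ranked by Stmn2, Gap43 and Mapt, against the level of these 3 genes in each group (horizontal axis, CPM). Eomes, Neurog2 and Btg2 are high in the lowest group alone (308, 76.9 and 81.5 CPM), Insm1 in the first 2, Neurod2 peaks in the third at 1102 CPM, and Neurod6 stays between 712 and 861 CPM.

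Within the lowest of these groups the levels could be followed further. Its 115 cells with the fewest neuron gene UMIs held 596 CPM (541 to 655) of Eomes, 208 CPM (176 to 244) of Neurog2 and 172 CPM (143 to 205) of Btg2, and its 114 cells with the most held 51.7 CPM (35.4 to 73.1), 21.0 CPM (11.2 to 36) and 37.2 CPM (23.6 to 55.8). The immediate early list went from 653 to 155 CPM over these cells, and its part in these differences was not tested. Over the same cells Neurod2 went from 535 CPM (482 to 591) to 959 CPM (883 to 1039), and Insm1 from 158 CPM (130.0 to 189.7) to 239 CPM (202 to 281). Neurod1 was at 154 CPM in the lowest of 5 subgroups, 190.2 CPM (159 to 226) in the next and 87.3 CPM (65.6 to 114) in the highest. The lowest subgroup held the neuron genes at 128 CPM, against 321 CPM in stage 1 and 412 CPM in stage 2. Of its 115 cells, 72 were in the newborn gate and 41 in the young gate. Relative to stage 2, its Neurog2 was at 0.974 (0.748 to 1.27) and its Eomes at 1.34 (1.13 to 1.59). The gate names thus do not show that these cells were neurons.

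Next, the cells that carried several members at once were described. Among the 52 dividing cells without radial glia genes, the 29 with an Eomes UMI held Neurog2 at 295 CPM and the 23 without at 53.0 CPM, a ratio of 5.57 (2.71 to 13.3). Of the 27 cells with a Neurog2 UMI, 24 (88.9%) also held Eomes, against 5 of 25 (20%) of the others, with median depths of 10098 and 6687 UMIs. After thinning to 2000 UMIs these shares were 61.5% (31.6 to 86.1) and 25.6% (13 to 42.1), and the intervals overlapped. All 9 Neurod4 UMIs of this gate were in cells with Eomes. The cells with Eomes held 2.93 times (2.37 to 3.65) as much Igfbpl1 and 0.375 (0.199 to 0.694) as much of the inhibitory list as those without. The gate thus held cells with Eomes and Neurog2 beside cells with more inhibitory genes, and its mean levels cover both.

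In the newborn gate the 164 cells with an Eomes UMI were compared with the 381 cells without. Neurog2 was at 97.0 against 12.2 CPM, a ratio of 7.98 (5.53 to 11.7), Btg2 at 112 against 13.7 CPM, a ratio of 8.18 (5.81 to 11.7), and Neurod1 at 169 against 93.2 CPM, a ratio of 1.81 (1.51 to 2.16). Neurod2 was lower in the cells with Eomes, at 517 against 897 CPM (ratio 0.577, 0.530 to 0.627), as were the neuron genes (0.532, 0.506 to 0.559), while Neurod6 was close to even at 0.891 (0.825 to 0.962). Thinned to 2000 UMIs, 19.3% (12.3 to 27.9) of the 109 cells with Eomes held Neurog2, against 2.52% (1.27 to 4.47) of the other 436, and the median depths were 7005 and 6581.5 UMIs. The unthinned shares were 23.8% and 8.66%. Insm1 was found in 33% (24.3 to 42.7) and 31% (26.7 to 35.5) of these thinned cells. The cells with Eomes also held more of the immediate early list, at 543 against 104 CPM (ratio 5.23, 4.58 to 5.97), and more of the inhibitory list, at 70.3 against 14.3 CPM. The part of these genes in the result was not tested.

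Within stage 2, cells with more S phase than mitosis UMIs (17 cells) were set against the other dividing cells (35 cells). The latter are called mitosis cells here. The name stands for the 10 genes of that list and also takes in cells with equal counts. Ccnb1, Cenpf, Tpx2, Ube2c and Nusap1 of the mitosis list were also in the dividing list that chose these cells. No gene of the S phase list was. Neurog2 was higher in the mitosis cells by 2.29-fold (1.33 to 4.2), Eomes by 2.24-fold (1.54 to 3.34), Neurod2 by 2.19-fold (1.31 to 3.87) and Neurod6 by 2.04-fold (1.28 to 3.40). Neurod1 had 24 UMIs in the mitosis cells and 1 in the S phase cells, a ratio of 11 (1.79 to 452). Insm1, at 1.13 (0.821 to 1.56), and Btg2, at 1.16 (0.686 to 2.02), had intervals that include 1. The median depth was 8229 UMIs in the mitosis cells and 9762 UMIs in the S phase cells. Neurod4, with 5 and 4 UMIs, had a ratio of 0.573 (0.123 to 2.89). In dividing inhibitory cells Neurod2 was at 0.548 (0.341 to 0.888), Neurod6 at 1.31 (0.724 to 2.53) and Insm1 at 1.46 (1.04 to 2.07). Stage 1 gave 0.182 (0.0690 to 0.436) for Neurod2, with 8 UMIs in the mitosis cells and 19 in the S phase cells. There 10 of the 27 Neurod2 UMIs were in 1 cell, so the ratio may lean on that cell. Neurod2 was thus higher in the mitosis cells of stage 2, but lower in those of stage 1 and of dividing inhibitory cells. Single cells of stage 2 held up to 18 of the 96 Neurog2, 19 of the 200 Eomes and 18 of the 104 Neurod2 UMIs, a spread between cells that the counting intervals do not cover.

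Since Btg2 is also an immediate early gene, cells with at least 5 UMIs of Fos, Fosb, Egr1, Junb, Npas4, Arc, Ier2 and Nr4a1 together were compared with cells with 0 or 1. Btg2 was higher in the former in 12 of 12 gates, and the interval lay above 1 in 10 of them. The ratio ran from 1.89 (1.02 to 3.75) in stage 2 to 22.3 (10.2 to 60.8) in vascular and immune cells. In radial glia and astrocytes Btg2 was at 557 against 89.3 CPM, a ratio of 6.23 (4.68 to 8.45), and in newborn neurons at 146 against 18.9 CPM, a ratio of 7.74 (5.54 to 10.9). Cells with many such UMIs were also deeper, with medians of 9105 against 6398 UMIs in the newborn gate. The list was not made up alike in all gates. Egr1, Ier2 and Fos were at 476, 147 and 35.6 CPM in stage 2 and at 104, 60.4 and 43.8 CPM in newborn neurons. In radial glia and astrocytes they were at 383, 161 and 768 CPM. The genes of the list were not compared one by one. Over the 12 gates the log2 level of Btg2 went with that of the list at a Pearson r of 0.924 and a Spearman rho of 0.881, which is a description of gates from 1 library and 1 digestion. Eomes and Neurog2 were higher with the list too, but not everywhere: in newborn neurons by 6.25-fold (5.30 to 7.39) and 7.26-fold (5.12 to 10.4), and in stage 2 by 2.38-fold (1.46 to 4.05) and 1.11-fold (0.666 to 1.89). In young neurons the ratio was 7.53 (5.92 to 9.65) for Eomes, 5.57 (4.26 to 7.33) for Neurog2 and 4.06 (3.33 to 4.95) for Btg2. In upper-layer neurons Neurog2 was at 0.765 (0.159 to 3.23). Eomes there had 0 UMIs in cells with many list UMIs and 3 in those with 0 or 1. Neurod2 was lower with the list, at 0.545 (0.488 to 0.606) in newborn neurons and 0.202 (0.115 to 0.340) in stage 2. Whether the immediate early genes were induced in the animal or during digestion was not tested.

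**Figure D4:**
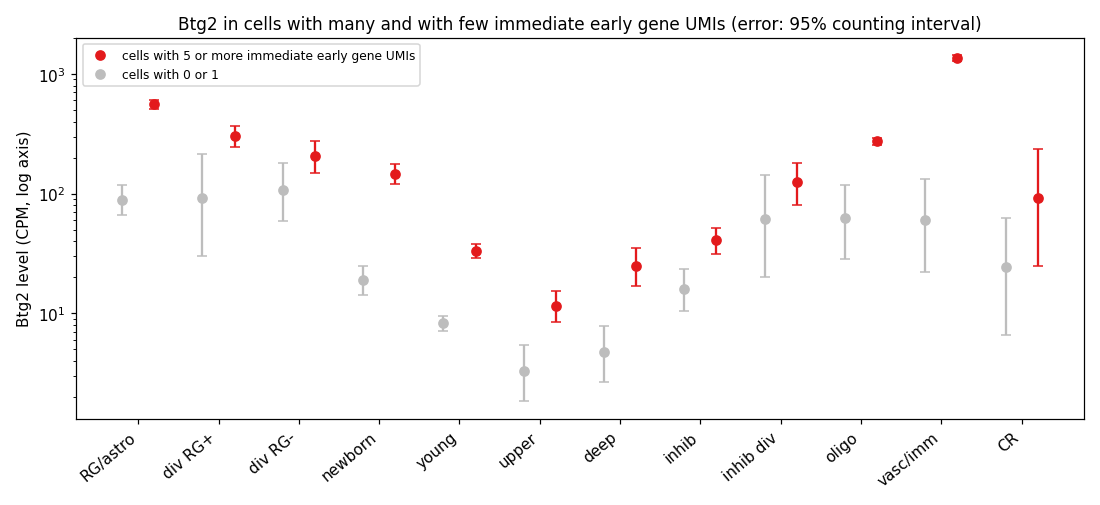
Level of Btg2 (vertical axis, CPM, log axis) in the cells of each of the 12 gates with at least 5 UMIs of 8 immediate early genes (red) and in those with 0 or 1 (grey), with 95% counting intervals. The red point is the higher one in 12 of 12 gates, with ratios from 1.89 to 22.3.

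The bases before the transcription start of the members were then read for E boxes (CANNTG, the same on both strands), the sites that bHLH proteins bind. RefSeq promoters of build GRCm38.p6 matched 8 of the 9 members. Insm1 had no entry. An E box was present in the 250 bases before the start of 66.2% of 32851 promoters. None was in that of Neurog1, Neurog2, Btg2, Eomes or Neurod4, members centred early or without UMIs. With 8 members read and Insm1 missing, a link of E boxes with the order was not tested. Neurod1 had 1 (66.2% had 1 or more), Neurod6 had 2 (31.8% had 2 or more) and Neurod2 had 3 (12.2% had 3 or more). The box of Neurod1 and 1 of those of Neurod2 were CATATG, which was in 3.46% of all promoters. Another of those of Neurod2 was CAGATG, which with CATCTG on the other strand was in 14.4% of promoters. Btg2 held instead a cAMP response element, TGACGTCA, which reads the same on both strands, is known from immediate early genes and was in 1.55% of all promoters. It lay 166 bases before the start and was looked for after the sequence and the levels of Btg2 had been seen. The promoters of Neurog2 at chr3:127632886-127633135 (plus strand), Btg2 at chr1:134079156-134079405, Neurod1 at chr2:79456637-79456886, Neurod2 at chr11:98329646-98329895 and Neurod6 at chr6:55681264-55681513 (all minus strand) are shown 5′ to 3′. They stand for an early member without E boxes, the member with a cAMP response element and the 3 later members. Capitals mark E boxes, and in Btg2 the cAMP response element.
Neurog2: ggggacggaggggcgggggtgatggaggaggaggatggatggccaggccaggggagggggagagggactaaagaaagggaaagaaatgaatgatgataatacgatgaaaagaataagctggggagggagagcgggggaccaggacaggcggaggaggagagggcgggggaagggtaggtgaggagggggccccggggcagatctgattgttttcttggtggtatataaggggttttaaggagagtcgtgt
Btg2: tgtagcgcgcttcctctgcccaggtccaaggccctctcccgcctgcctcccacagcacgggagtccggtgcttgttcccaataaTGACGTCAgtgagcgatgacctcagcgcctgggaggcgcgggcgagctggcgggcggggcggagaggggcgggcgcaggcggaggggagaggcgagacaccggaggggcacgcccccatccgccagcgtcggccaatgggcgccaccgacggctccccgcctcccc
Neurod1: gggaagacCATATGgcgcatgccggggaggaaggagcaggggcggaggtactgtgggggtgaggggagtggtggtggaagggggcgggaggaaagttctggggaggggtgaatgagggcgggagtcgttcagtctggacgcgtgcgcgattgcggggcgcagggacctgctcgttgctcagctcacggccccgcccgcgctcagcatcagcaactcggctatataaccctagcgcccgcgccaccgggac
Neurod2: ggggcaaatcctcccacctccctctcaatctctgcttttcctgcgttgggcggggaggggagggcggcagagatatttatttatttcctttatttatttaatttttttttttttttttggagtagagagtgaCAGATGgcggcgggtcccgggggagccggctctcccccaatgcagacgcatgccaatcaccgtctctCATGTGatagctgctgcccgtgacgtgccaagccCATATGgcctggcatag
Neurod6: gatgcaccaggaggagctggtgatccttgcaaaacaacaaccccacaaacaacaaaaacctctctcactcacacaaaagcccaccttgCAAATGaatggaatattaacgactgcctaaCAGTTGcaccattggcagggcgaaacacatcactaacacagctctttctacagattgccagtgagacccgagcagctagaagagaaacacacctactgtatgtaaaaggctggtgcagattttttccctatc
These are matches of letters in 1 window of each gene, and binding was not measured.

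The partners, inhibitors and targets of the bHLH members were read from a list of 23 genes. Of 7 inhibitors, 6 were at least 2-fold lower in stage 2 than in stage 1 (Id1, Id3, Id4, Hes1, Hes5 and Rest), against 11.3% of all genes tested, with Hes5, an effector of Notch, at 767 and 142 CPM and Id3 at 514 and 0 CPM, where 3 UMIs in stage 2 would be 6.68 CPM. Id2 was at 242 and 225 CPM. From stage 2 to newborn neurons 5 of 6 were lower again, against 11.2% of genes, while Id2 was higher (17.7% of genes), at 790 CPM, and within the 5 stages was highest in newborn neurons, with 840 CPM (819 to 863) in deep-layer neurons outside them. From newborn to young neurons Rest was higher by the same limit (8.18% of genes), and from young to upper-layer neurons Hes1 was higher (3.8%) and Id4 lower (5.95%). The absence of radial glia genes defined stage 2, and several of these inhibitors are themselves genes of radial glia.

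Of 9 targets and companions, 8 were at least 2-fold higher in stage 2 than in stage 1, against 6.39% of all genes tested: the Notch ligands Dll1 and Dll3, Hes6, the migration gene Rnd2, Gadd45g, and the neuron genes Tbr1, Cdk5r1 and Dcx. Dll3 was at 2.14 CPM in stage 1, 71.2 CPM in stage 2 and 22.8 CPM in newborn neurons. Rnd2, known as a target of Neurog2, was at 34.3, 209, 237 and 23.6 CPM in stages 1 to 4 where Neurog2 was at 8.57, 214, 36.8 and 7.03 CPM with the same newborn gate. Dll1, Dll3 and Gadd45g were lower in newborn neurons than in stage 2 (11.2% of genes), and Tbr1, Cdk5r1 and Dcx higher (17.7%). From newborn to young neurons Dll3, Rnd2 and Cbfa2t2 were lower (6.5%), and from young to upper-layer neurons Dll1 was lower (5.95%).

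Of the 3 E proteins, with which bHLH factors pair, 0 were 2-fold higher or lower in the first 2 steps (6.39% and 11.3% of genes, then 17.7% and 11.2%). Tcf3 and Tcf12 were lower from newborn to young neurons (6.5% of genes), at 82.4 and 34.5 CPM and at 160.1 and 53.7 CPM. Over the stages Tcf3 went from 163 to 21.6 CPM. Tcf4 stayed between 2238 and 3900 CPM in all 5 stages. Among the 4 other bHLH genes, Neurog3 had 0 UMIs and Atoh1 had 1 UMI in the 5 stages. Bhlhe22, a factor of excitatory neurons, went from 49.0 CPM in stage 2 to 246 CPM in newborn neurons (17.7% of genes were higher). Nhlh2, with 33 UMIs in the stages, was lower in each of the last 2 steps (6.5% and 5.95% of genes).

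**Figure D5:**
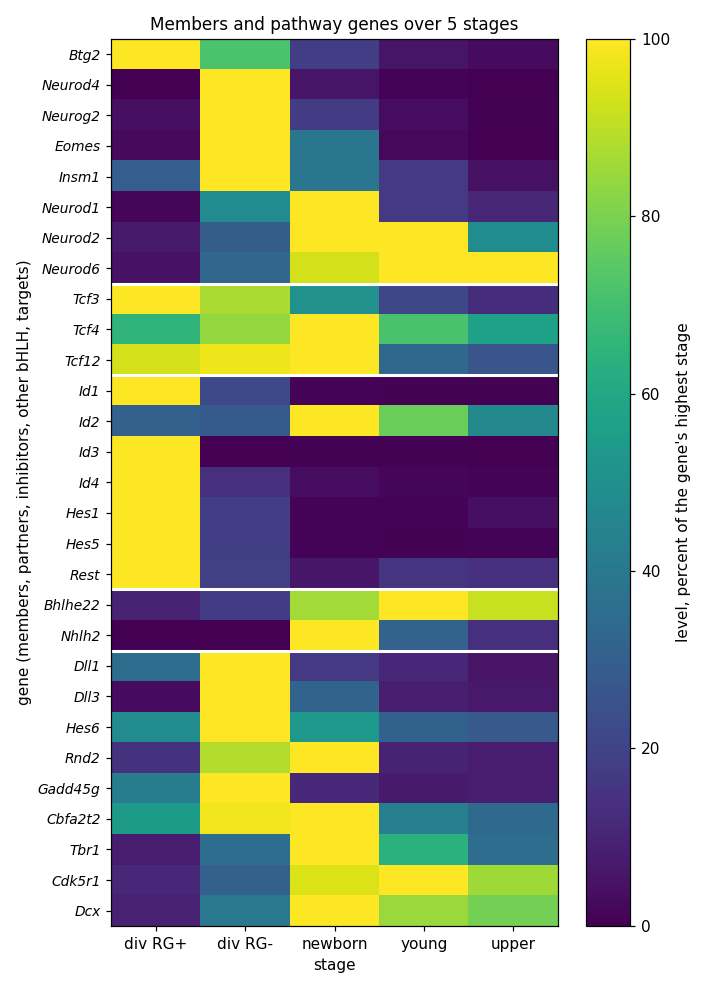
Level of the 8 members and of the 21 listed pathway genes with more than 1 UMI in the stages (rows, grouped as members, E protein partners, inhibitors, other bHLH genes and targets) in stages 1 to 5 (columns), as a percent of each gene's highest stage (colour scale from 0 to 100). The inhibitors other than Id2 are brightest in stage 1, whereas Dll1, Dll3, Hes6 and Gadd45g peak with Neurog2 in stage 2, and Tbr1 with Neurod1 in stage 3. Rnd2 is brightest in stage 3, but its intervals in stage 2 (209 CPM, 169 to 256) and stage 3 (237 CPM, 223 to 251) overlap.

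The genes with the profile most like that of each member were found by Pearson correlation of log2(CPM + 1) over the 12 gates, among 12695 genes outside the marker lists. The 2 nearest were Dusp14 (r = 0.934) and Rnd2 (0.932) for Eomes, Ccar1 (0.906) and Polr2c (0.906) for Neurog2, Ccar1 (0.981) and Casp2 (0.971) for Insm1, Itgb1 (0.989) and Aaed1 (0.986) for Btg2, Papolg (0.916) and Rae1 (0.903) for Neurod1, Supt5 (0.928) and Sdccag8 (0.910) for Neurod4, Kif21b (0.957) and Cnot7 (0.944) for Neurod2, and Enc1 (0.962) and Arpc5 (0.953) for Neurod6. The correlation compares the shape of profiles and not the size of their changes. Ccar1 was at 343 CPM in stage 2 and 159 CPM in vascular and immune cells, where Neurog2 was at 214 and 1.10 CPM. Supt5 was at 97.9 and 72.4 CPM in these gates, where Neurod4 was at 20.03 and 0 CPM. Rnd2 changed more, at 209 and 6.59 CPM. Among the members themselves, Neurod2 and Neurod6 were the closest pair (r = 0.957), followed by Neurog2 and Eomes (0.934). The values for Neurod4 rest mainly on its 9 UMIs in stage 2, since it had no UMI in most gates. Btg2 went with none of the others, with values from -0.745 (Neurod6) to 0.171 (Neurog2). These correlations share 1 library and differ in gate size from 25 to 4167 cells, and they are given without a test.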

How the data were processed

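Per the labels and the study's methods, P0 WT cortex was digested in papain and cells were captured with a 10x Chromium 3′ kit and sequenced on Illumina. The authors deposited raw UMI counts per gene and cell, with no normalization. The submitters' processing notes name STAR, Cell Ranger 2, Seurat and mm9, and the rule for calling cells is not given in the sources used here. Genes are linked to promoters by symbol only. The table held 90346034 UMIs in 11062 cells with 11062 distinct barcodes, at least 500 UMIs each, and 3.90% of UMIs were mitochondrial. Columns of other samples numbered 0.

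Cells with at least 2000 UMIs and 200 genes were kept (2431 were left out). Each cell went to the first matching gate by summed UMIs of marker lists that hold no member, in this order: vascular and immune (10 genes, at least 5 UMIs), Cajal-Retzius (Reln at least 5, Trp73 at least 1), oligodendrocyte lineage (5 genes, at least 3), inhibitory (7 genes, at least 5), dividing (12 genes, at least 5, with at least 5 UMIs of 6 radial glia genes for stage 1), radial glia (at least 10), newborn (at least 4 UMIs over at least 2 genes), young (Igfbpl1 at least 3), upper and deep layers (at least 5, Igfbpl1 at most 1). No doublet caller was run. Instead, 9 dividing cells with at least 30 neuron gene UMIs were set aside, and cells above 20000 UMIs were left out in an alternative. A further 1042 cells matched no gate.

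UMIs were summed per gate and divided by its non-mitochondrial UMIs, per 1000000 (CPM). Intervals at 95% are exact Poisson for levels, exact conditional binomial for ratios, Clopper-Pearson for shares and delta-method for the centre (for Neurod4, its range over the Poisson limits). Called means at least 2-fold, with 0 UMIs set to 3. Shares were also taken after thinning to 2000 UMIs. The named genes are all 9 members, 23 pathway genes (1 more is not reported here) and, per member, the 2 genes of most similar profile with at least 200 UMIs. The members and lists were chosen with earlier results of these data known. The 10 groups by neuron genes, their subdivision and the description of the gate from Nhlh1 and Mfng were chosen after seeing the data. Since Neurog1 had 0 UMIs, 8 members, in 28 pairs, were compared by centre instead of 9. The scripts were tested on simulated data. Tools were Python 3.11.15, numpy 2.4.6, scipy 1.17.1 and matplotlib 3.10.9. The 11 alternatives changed the depth limit, thresholds, newborn markers, doublet limits, denominator, weighting or thinning.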

Additional observations from a re-analysis of the deposited data

How the results depend on the processing

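No paired analysis was possible because only 1 library and 1 group were analysed. The order of the 28 pairs of members by centre was the same under 9 of 11 alternatives. It held in 25 pairs with the newborn gate from Nhlh1 and Mfng, where Insm1 came before Neurog2, Eomes and Neurod4, and in 27 pairs without the neuron gene limit in dividing cells, where Insm1 came before Eomes, a pair whose intervals overlapped. Of 88 centres recomputed, 62 stayed within the interval of the main value. Of 329 level ratios between neighbouring stages, 249 stayed within their interval, 71 moved beyond it in the same direction, 6 moved beyond an interval that includes 1 to its other side, and 3 turned: with the newborn gate from Nhlh1 and Mfng, Btg2 (1.70) and Eomes (1.45) were higher in newborn neurons than in dividing cells without radial glia genes, and with oligodendrocyte lineage cells not set aside, Btg2 (1.08) was higher in dividing cells without than with radial glia genes. The 6 were Neurod2 in young over newborn neurons (0.999), at 2.0004 with the newborn gate from Nhlh1 and Mfng and 1.04 to 1.07 under 3 others, and Neurod6 in upper-layer over young neurons (1.004), at 0.933 and 0.963 under 2. Few cells limit the dividing gates (41 and 52), where 3 UMIs stand for 6.43 and 6.68 CPM.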
